A study of Mus musculus with 4 samples.

Results

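Acod1 and Il1f9 neutrophils are mature neutrophils of mouse bone marrow whose barcodes held at least 3 UMIs (unique molecular identifiers, 1 per captured transcript) of Acod1 and Il1f9 summed. They were selected on measured values. Barcodes were kept if 200 or more genes were detected and mitochondrial transcripts made up no more than 10% of UMIs. A member had at least 3% of its UMIs from S100a8 and S100a9, under 1% from the secondary granule genes Camp, Ngp and Ltf, and fewer than 3 UMIs of the interferon-induced genes Ifit1, Ifit3 and Rsad2. The rule took 4195 of 49567 kept barcodes. It took 4195 of the 9698 barcodes that met the limits on S100 and granule genes, which are called mature neutrophil barcodes here. That name stands for these limits alone. They use no primary granule gene such as Elane and can let precursors pass. WT replicate 1 held 1464 members, WT replicate 2 held 991, YAP1 heterozygote replicate 1 held 707 and YAP1 heterozygote replicate 2 held 1033. WT replicate 1 was thus the library with the most members, though not with most of them.

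Neutrophils leave the marrow after losing their granule gene programme and gaining the receptors of the circulating cell. Acod1 codes for the mitochondrial enzyme that makes itaconate from cis-aconitate, and Il1f9 for the IL-36 gamma cytokine of the IL-1 family. Both genes are known to be induced in myeloid cells by microbial products and cytokines through NF-kB, together with chemokine genes such as Cxcl2 and with inhibitors such as Nfkbia that end the response.

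The study compared cell percentages and expression in bone marrow of WT and YAP1 heterozygote mice, 10-week animals in both groups, with 2 libraries per group. YAP1 is the coactivator controlled by the Hippo kinases. The cells were nucleated marrow cells taken by flow sorting and profiled by 10x droplet sequencing at the 3′ end of transcripts. Neither group is labelled with an agent. No source used here gives the sort gates or how the heterozygote was made, whether in all tissues or from a cell type promoter. Nor do the labels state that replicates are separate animals, so p-values measure the spread between these samples. Y-linked Ddx3y was present in replicate 1 of each group, at 101 and 68.0 CPM (UMIs per 1e6 UMIs of the cells summed). Xist was present in replicate 2 of each group, at 878 and 857 CPM. In turn, Xist was at 0.131 and 0.0894 CPM in replicates 1 and Ddx3y at 0.0261 and 0 CPM in replicates 2. By these transcripts the replicate number went with sex, and the 2 libraries of each group differed in sex. The libraries held 112806900 to 119855112 UMIs. Where 4 values follow each other below, they stand in the order WT replicate 1, WT replicate 2, YAP1 heterozygote replicate 1, YAP1 heterozygote replicate 2. The median depth of members was 3400.5, 3909, 4286 and 3585 UMIs. Across the libraries 305 barcode sequences occurred more than once, none of them as a member in more than 1 library.

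Acod1 (ENSMUSG00000022126) lies on the plus strand of chromosome 14 from 103046977 to 103056573, and Il1f9 (ENSMUSG00000044103) on the plus strand of chromosome 2 from 24186476 to 24193568 (GRCm38, GENCODE M21). Because Cxcl2 and the NF-kB inhibitor genes Nfkbia and Tnfaip3 were all highest in the members of WT replicate 1, the 250 bases before the RefSeq start of these genes are shown beside those of the genes of the rule (RefSeq, GRCm38.p6, 5′ to 3′ on the strand of the gene). Capitals mark GGGNNTTTC, a short form of the NF-kB site, searched on both strands. The windows are chr14:103046762-103047011 (plus) for Acod1, chr2:24186226-24186475 (plus) for Il1f9, chr5:90903649-90903898 (plus) for Cxcl2, chr12:55492648-55492897 (minus) for Nfkbia and chr10:19015411-19015660 (minus) for the upstream start of Tnfaip3.
Acod1: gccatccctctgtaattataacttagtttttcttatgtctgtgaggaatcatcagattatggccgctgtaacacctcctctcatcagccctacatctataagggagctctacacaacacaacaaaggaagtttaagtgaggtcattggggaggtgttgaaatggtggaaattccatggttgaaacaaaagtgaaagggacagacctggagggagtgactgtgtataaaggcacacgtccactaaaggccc
Il1f9: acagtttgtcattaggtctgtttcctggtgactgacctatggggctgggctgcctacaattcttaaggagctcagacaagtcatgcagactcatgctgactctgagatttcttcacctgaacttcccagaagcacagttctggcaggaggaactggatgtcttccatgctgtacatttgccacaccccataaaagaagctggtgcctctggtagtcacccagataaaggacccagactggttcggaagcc
Cxcl2: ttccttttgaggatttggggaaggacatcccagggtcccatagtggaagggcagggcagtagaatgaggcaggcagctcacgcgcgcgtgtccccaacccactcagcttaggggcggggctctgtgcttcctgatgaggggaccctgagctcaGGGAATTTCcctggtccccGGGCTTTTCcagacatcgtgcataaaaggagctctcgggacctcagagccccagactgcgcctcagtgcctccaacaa
Nfkbia: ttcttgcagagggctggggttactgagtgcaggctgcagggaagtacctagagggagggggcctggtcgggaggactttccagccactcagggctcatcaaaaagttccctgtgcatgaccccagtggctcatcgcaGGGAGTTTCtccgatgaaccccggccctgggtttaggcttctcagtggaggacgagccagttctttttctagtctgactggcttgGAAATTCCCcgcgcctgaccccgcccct
Tnfaip3: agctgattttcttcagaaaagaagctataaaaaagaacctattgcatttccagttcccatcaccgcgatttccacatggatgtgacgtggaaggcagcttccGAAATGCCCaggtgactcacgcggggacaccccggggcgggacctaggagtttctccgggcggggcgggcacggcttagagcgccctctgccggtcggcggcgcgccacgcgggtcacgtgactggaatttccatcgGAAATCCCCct
Cxcl2 had 2 matches, beginning 97 and 78 bases before the start. Nfkbia and Tnfaip3 also had 2 matches each, and Acod1 and Il1f9 had 0. Il1b and Clec4e, whose levels were also highest in WT replicate 1, had 0 matches, as did Fpr1, and Cxcr2 had 1. The upstream start of Ccrl2 had 1 match. Of 32851 RefSeq promoter windows of this length, 3.72% held at least 1 match. TGANTCA, a form of the AP-1 site searched likewise, was in 6.75% of the windows and, among these 5 genes, only in Tnfaip3. The matches describe letters in a window of this length and not binding.

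Of the neutrophil markers, Csf3r and Cxcr2 were present in nearly every member, and Ly6g and G0s2 in fewer. Ly6g had a UMI in 56.3%, 65.8%, 66.3% and 57.1% of members and G0s2 in 69.7%, 62.1%, 55.0% and 58.2%. Csf3r, the G-CSF receptor, had a UMI in 95.5%, 96.5%, 97.0% and 96.9% of members, and Cxcr2, the receptor for CXCL1 and CXCL2, in 94.3%, 97.2%, 98.7% and 98.2%. In B cells of the same libraries (at least 3 UMIs of Cd79a, median depths of 2698 to 3241 UMIs) the shares were 4.06% to 5.25% for Csf3r and 1.79% to 2.11% for Cxcr2. With each cell thinned to 1000 UMIs, Csf3r remained detected in 60.8% to 68.4% of members and Cxcr2 in 64.5% to 74.2%. The 12 neutrophil markers together made up 256185 to 279029 CPM. They include S100a8 and S100a9, with a median of 23.1% to 24.6% of a member's UMIs, so the sum rests in part on genes of the rule. The 9 macrophage markers made up 19.1 to 103 CPM, with Marco at 0 UMIs in every library. The 9 monocyte markers made up 1147 to 1264 CPM and had 3 or more UMIs in 41.9% to 49.9% of members. Ly6c2, which is on that list, had a UMI in 65.5% to 71.6% of members. Scrublet called 4.74% to 5.94% of members as doublets. They were left in. The shares, the ratios to comparison neutrophils, the genotype tests and the interaction given below were recomputed without them.

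The markers outside the rule were also present. Cxcl2, the neutrophil chemoattractant, had a UMI in 97.1%, 93.3%, 84.3% and 88.4% of members, against 3.75% to 11.9% of B cells. After thinning the members' shares were 92.6%, 81.0%, 63.9% and 72.1%. Other mature neutrophil barcodes carried Cxcl2 too. It had a UMI in 89.8%, 88.5%, 76.8% and 80.6% of those with 1 or 2 UMIs of Acod1 and Il1f9. Of those with 0 UMIs of both genes, 75.6%, 72.2%, 66.2% and 68.5% had one. Clec4e, the receptor Mincle for mycobacterial glycolipid and dying cells, was detected in 82.2% to 91.9% of members, and Fpr1, a receptor for formyl peptides, in 52.3% to 60.4%. Among barcodes with 0 UMIs of both genes, Clec4e was in 66.7% to 69.6% and Fpr1 in 27.4% to 41.1%. Ccrl2, an atypical receptor that binds chemerin, was detected in 58.5% of members of WT replicate 1 but in 22.6%, 17.0% and 12.8% in the other libraries. It was in 3.35% to 6.28% of B cells, and in 30.7%, 17.0%, 15.6% and 8.71% of barcodes with 0 UMIs of both genes. Ccrl2 therefore marked most members in WT replicate 1 alone. No measurement here bears on activation as a state of the cell, and the name used below is that of the genes of the rule.

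Members differed in which gene brought them over the limit. Acod1 had a UMI in 87.2%, 77.2%, 62.1% and 61.9% of members, and Il1f9 in 85.0%, 93.6%, 94.3% and 95.3%. After thinning to 1000 UMIs these shares were 60.6%, 42.2%, 27.4% and 33.7% for Acod1 and 49.3%, 52.2%, 50.2% and 56.5% for Il1f9. B cells had at least 1 UMI of either gene in 1.45% to 3.23% of barcodes and at least 3 in 0.128% to 0.400%. The level of Acod1 in members was 1055 and 543 CPM in WT and 310 and 406 CPM in YAP1 heterozygote, and that of Il1f9 was 699 and 674 CPM in WT and 602 and 758 CPM in YAP1 heterozygote. These levels follow in part from the rule and are given without a test. Acod1 was highest in WT replicate 1 and higher in both WT libraries than in both YAP1 heterozygote libraries, whereas the Il1f9 levels overlapped.

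The limit of 3 UMIs cut through a continuous range. Cells with exactly 3 UMIs numbered 297, 273, 263 and 335 and made up 20.3%, 27.5%, 37.2% and 32.4% of members, and 331, 342, 409 and 493 mature neutrophil barcodes had exactly 2. Cxcl2 stood at 7880, 4660, 2374 and 3142 CPM in cells with exactly 3 UMIs and at 6079, 3774, 2218 and 2898 CPM in those with exactly 2, so it was higher at 3 UMIs in each library. Other markers did not share this order everywhere. Clec4e was at 604 CPM at 3 UMIs and 653 CPM at 2 in YAP1 heterozygote replicate 1, Fpr1 at 204 and 221 CPM there, and Ccrl2 at 48.6 and 68.8 CPM in YAP1 heterozygote replicate 2. Another 317 barcodes with at least 3 UMIs were kept out by the limit on interferon-induced genes, and among immature neutrophils, which failed the limit on granule genes, 8.61% to 17.6% of barcodes had at least 3 UMIs, at median depths of 8890 to 10103 UMIs.

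The share of mature neutrophil barcodes that were members was lower in both YAP1 heterozygote libraries than in both WT libraries. It was 56.0% in WT replicate 1 (95% Wilson interval 54.1% to 57.9%) and 46.1% in WT replicate 2 (44.0% to 48.2%). In YAP1 heterozygote it was 32.6% in replicate 1 (30.7% to 34.6%) and 37.4% in replicate 2 (35.6% to 39.2%). The means were 51.0% ± 7.01 (SD, n = 2) and 35.0% ± 3.35 (SD, n = 2), and the groups did not overlap, but an exact two-sided permutation test gave p = 0.33, the smallest value that 2 against 2 samples allow. The intervals cover counting error only. As a share of all kept barcodes, members made up 11.3% and 8.42% in WT and 6.44% and 7.47% in YAP1 heterozygote (exact permutation p = 0.33).

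With each barcode thinned to 1000 UMIs the shares of mature neutrophil barcodes were 19.5% and 9.40% in WT and 3.76% and 7.14% in YAP1 heterozygote, with 15 to 42 shallower mature neutrophil barcodes per library left out. The ratio of the group means, YAP1 heterozygote to WT, was 0.377 after thinning and 0.686 at all depths. The Wilson intervals of WT replicate 2 and YAP1 heterozygote replicate 2 were 8.23% to 10.7% and 6.23% to 8.17%. WT replicate 1 was apart from the other 3 libraries.

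**Figure D1:**
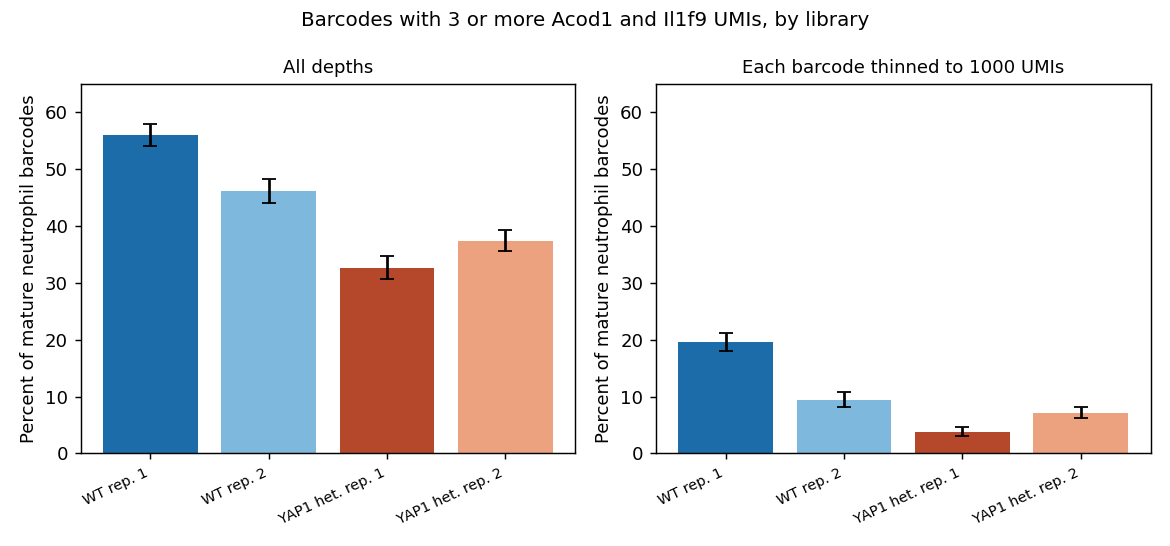
Percent of mature neutrophil barcodes with at least 3 UMIs of Acod1 and Il1f9 in each library, at all depths (left) and with each barcode thinned to 1000 UMIs (right); bars are library values and whiskers 95% Wilson intervals. WT libraries stand at 56.0% and 46.1% and YAP1 heterozygote libraries at 32.6% and 37.4% on the left, and WT replicate 1 stands apart on the right at 19.5%.

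Across mature neutrophil barcodes, the level of Cxcl2 was higher in each bin with more UMIs of Acod1 and Il1f9, in all 4 libraries. It went from 1866 CPM in WT replicate 1 barcodes with 0 UMIs to 13333 CPM in those with 10 or more, from 1542 to 9887 CPM in WT replicate 2, from 1098 to 6685 CPM in YAP1 heterozygote replicate 1 and from 1186 to 12527 CPM in YAP1 heterozygote replicate 2. Il1b, the precursor of interleukin 1 beta, went from 743 to 3802 CPM in WT replicate 1 and from 622 to 1338 CPM in YAP1 heterozygote replicate 1. The bins of 10 or more UMIs held 318, 89, 22 and 47 barcodes. Retnlg, a resistin-like gene of mature neutrophils, was higher at 3 to 4 UMIs than at 0 (35189 against 9350 CPM in WT replicate 1) and then level, at 34954 and 33211 CPM in the bins above. Ly6c2, the Ly6C antigen of monocytes and younger myeloid cells, went the other way, from 2352 to 752 CPM in WT replicate 1. Yet Ly6c2 had a UMI in 67.6%, 70.6%, 71.6% and 65.5% of members and in 65.4%, 60.8%, 61.2% and 56.8% of barcodes with 0 UMIs. These are values per library with no test, since deeper cells also reach a higher bin. Median depth was 3200 UMIs at 0 and 3834.5 UMIs at 10 or more in WT replicate 1. The CPM are of summed UMIs, and barcodes of over 10000 UMIs gave 60.5% to 71.6% of the UMIs at 0. The bin of 0 UMIs holds the comparison neutrophils described below, which carried precursor transcripts.

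**Figure D2:**
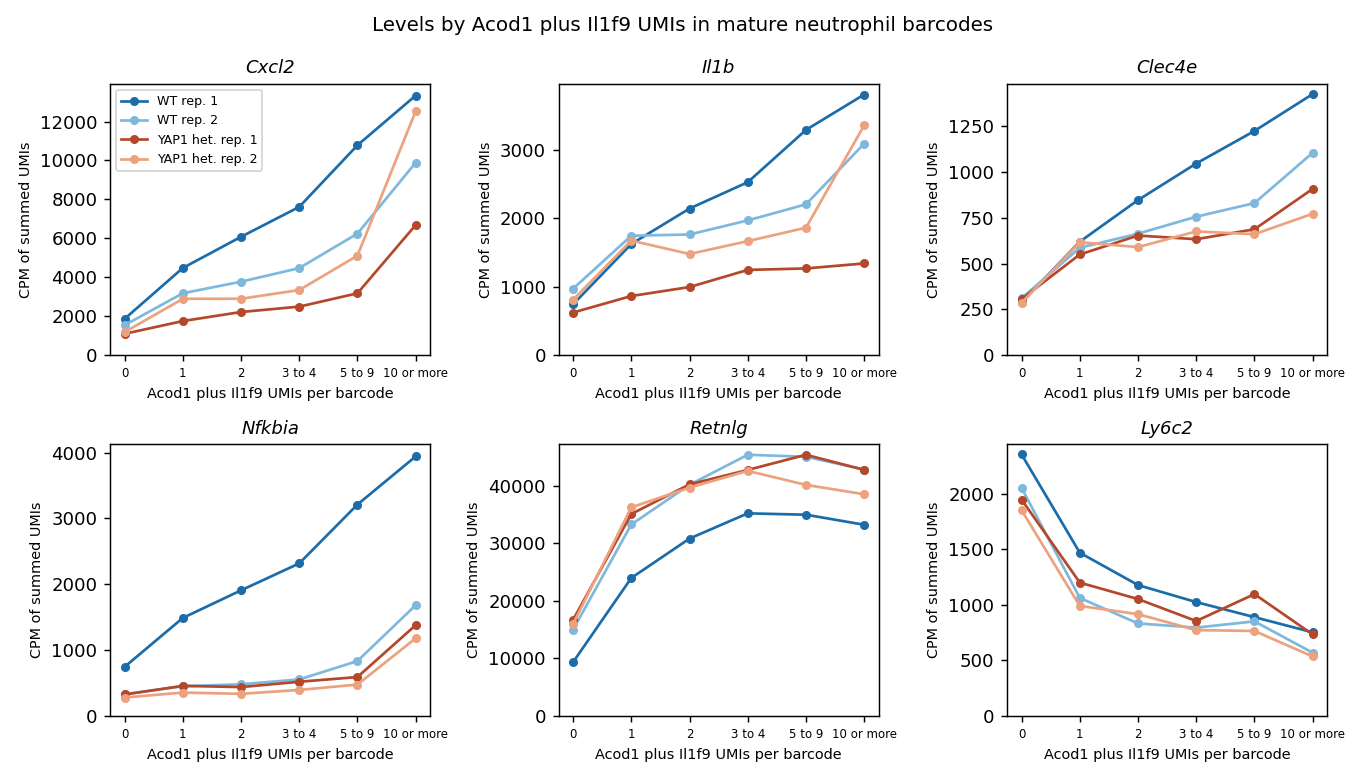
CPM of 6 genes in mature neutrophil barcodes grouped by their UMIs of Acod1 plus Il1f9, 1 line per library. Cxcl2 is lowest at 0 UMIs and highest at 10 or more in all 4 libraries, and Nfkbia in WT replicate 1 lies above the other libraries in every bin.

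Members were set against comparison neutrophils, mature neutrophil barcodes with 0 UMIs of both genes (332, 324, 474 and 482 barcodes), library by library and without a test. Of 1567 genes with at least 100 CPM in at least 3 libraries on either side, 119 (7.59%) were at least 2-fold higher in members in all 4 libraries and 437 (27.9%) at least 2-fold lower. Cxcl2 was higher by log2 2.47, 1.92, 1.41 and 1.93, a median of 3.79-fold. Other genes with a high ratio were the neutrophil antigen gene Ly6g (median log2 1.64), the NF-kB cofactor gene Nfkbiz (1.57), the cytokine gene Osm (1.5), Retnlg (1.49), the inflammasome sensor gene Nlrp3 (1.45), Fpr1 (1.43), the collagenase gene Mmp8 (1.43) and Fpr2 (1.42). Stefin A family genes were among them too, with Cstdc5 at 1.98, Cstdc4 at 1.48, Stfa1 at 1.48 and Stfa2l1 at 1.44. Tlr2, which senses bacterial lipoprotein, was at 1.51. Igkc, an immunoglobulin light chain gene of B and plasma cells, had the highest ratio of all (2.12), but its level in members went with the replicate number, at 199 and 233 CPM in both replicates 1 and 2174 and 2040 CPM in both replicates 2.

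The lowest ratios belonged to genes of neutrophil precursors. Elane, the elastase of primary granules, stood at 420, 363, 664 and 147 CPM in members and at 12466, 10904, 9376 and 8741 CPM in comparison neutrophils. Prtn3 (median log2 -4.82), Ms4a3 (-4.75), Fcnb (-4.61), Mpo (-4.54) and Ctsg (-4.21) were low in the same way. The comparison neutrophils, part of the mature neutrophil barcodes over which the shares are taken, thus carried precursor transcripts. They also held more deep cells. Barcodes of over 10000 UMIs were 15.8% to 23.5% of them but gave 60.5% to 71.6% of their UMIs, against 3.01% to 5.09% of members and 12.2% to 17.5% of members' UMIs. Cells with 3 or more UMIs of Vcam1, on the list of macrophage markers, were 9.34% to 17.8% of comparison neutrophils, while each of the other 8 macrophage markers reached 3 UMIs in 0% to 0.622% of them. On the list of T and NK cell markers, Nkg7 likewise had 3 or more UMIs in 13.5% to 23.2% of comparison neutrophils and in 0.484% to 1.27% of members.

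When every cell was thinned to 1000 UMIs, so that each cell counted alike, 1 of 1333 genes (0.075%) was at least 2-fold higher in all 4 libraries, and 94 (7.05%) were at least 2-fold lower. The gene was Cstdc5, at median log2 1.32. Cxcl2 kept a median log2 of 0.91, Ly6g 0.67, Retnlg 0.65, Osm 0.61, Ccrl2 0.56, Nfkbiz 0.54, Fpr1 0.43, Clec4e 0.36 and Il1b 0.08. With S100a8 and S100a9 required to reach 10% of UMIs in both kinds of cell, Cxcl2 stood at 1.00 and Tnfaip3 at 1.17, and 0 of 1247 genes were at least 2-fold higher in all libraries. The ratios of all 25 genes named as highest were thus smaller in thinned cells.

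**Figure D3:**
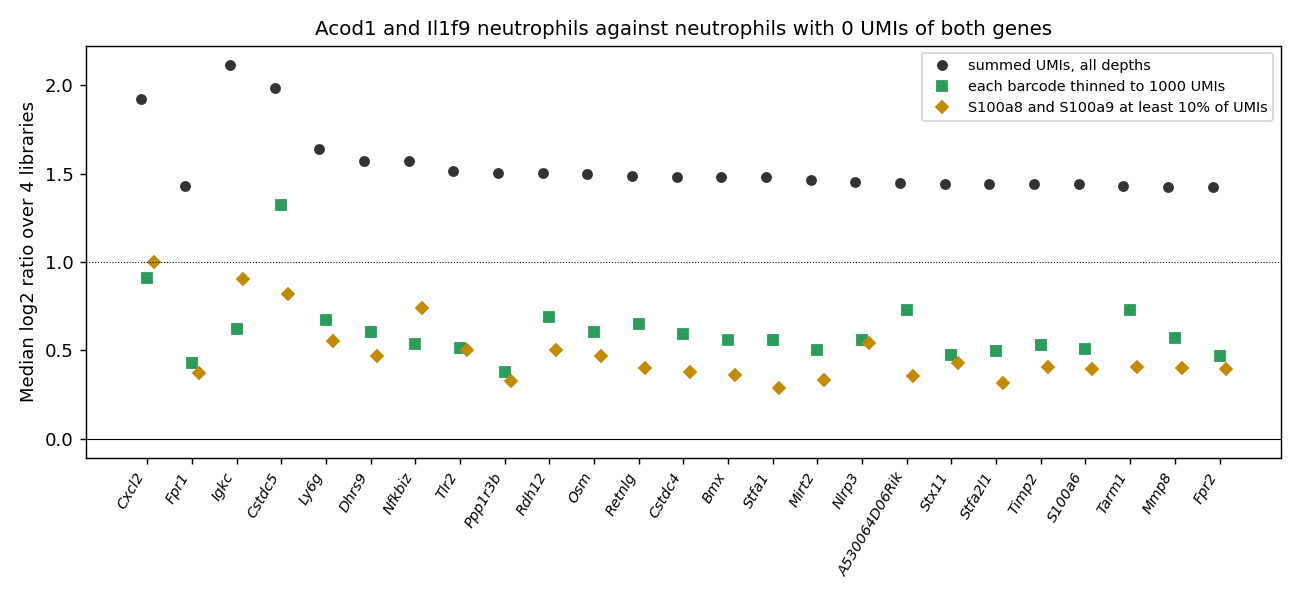
Median log2 ratio over 4 libraries of members to comparison neutrophils, for the 25 genes named by the rule as highest, from summed UMIs, from cells thinned to 1000 UMIs and with S100a8 and S100a9 at least 10% of UMIs; the dotted line marks 2-fold. Thinned values lie below those from summed UMIs for all 25 genes shown.

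Members with UMIs of Acod1 alone differed from members with UMIs of Il1f9 alone. The Acod1-only cells numbered 219, 63, 40 and 49, and the Il1f9-only cells 188, 226, 268 and 394, so the ratio of the 2 kinds turned from above 1 in WT replicate 1 to well below 1 in the other libraries. Cxcl2 was at 15415, 8882, 3063 and 7838 CPM in Acod1-only cells and at 5041, 3012, 1900 and 2453 CPM in Il1f9-only cells. Nfkbia, the inhibitor that holds NF-kB in the cytoplasm, was at 4140, 976, 791 and 1029 CPM against 1608, 334, 469 and 292 CPM. Both were higher in Acod1-only cells in all 4 libraries. So were Ccrl2 (median log2 2.09), the hydroxycarboxylic acid receptor gene Hcar2 (1.36), Wfdc17 (1.32), Il1b (1.29), the survival kinase gene Pim1 (1.11) and Ptgs2, which codes for cyclooxygenase 2 (0.92).

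Other genes were higher in the Il1f9-only cells of all 4 libraries. Ly6g was at 506, 569, 438 and 414 CPM in them and at 250, 260, 290 and 235 CPM in Acod1-only cells. The median log2 ratio, Acod1-only to Il1f9-only, was -1.27 for the neutrophil antigen gene Cd177, -1.12 for the NADPH oxidase gene Cybb, -0.80 for Mmp8 and -0.66 for Retnlg. Csf3r, also a gene of the mature granulocyte surface, went the other way, at 0.52. Of 1267 genes compared, 279 were higher and 158 lower in Acod1-only cells in all 4 libraries. Acod1-only cells were shallower, with median depths of 2660 to 3298 UMIs against 3772.5 to 4392 UMIs. Their median share of UMIs from S100a8 and S100a9 was also lower, at 16.9% to 20.8% against 25.4% to 27.3%. That share was under 10% in 58, 13, 9 and 12 Acod1-only cells and in 17, 13, 17 and 26 Il1f9-only cells. The part of depth, of the S100 share and of doublets in these ratios was not tested.

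**Figure D4:**
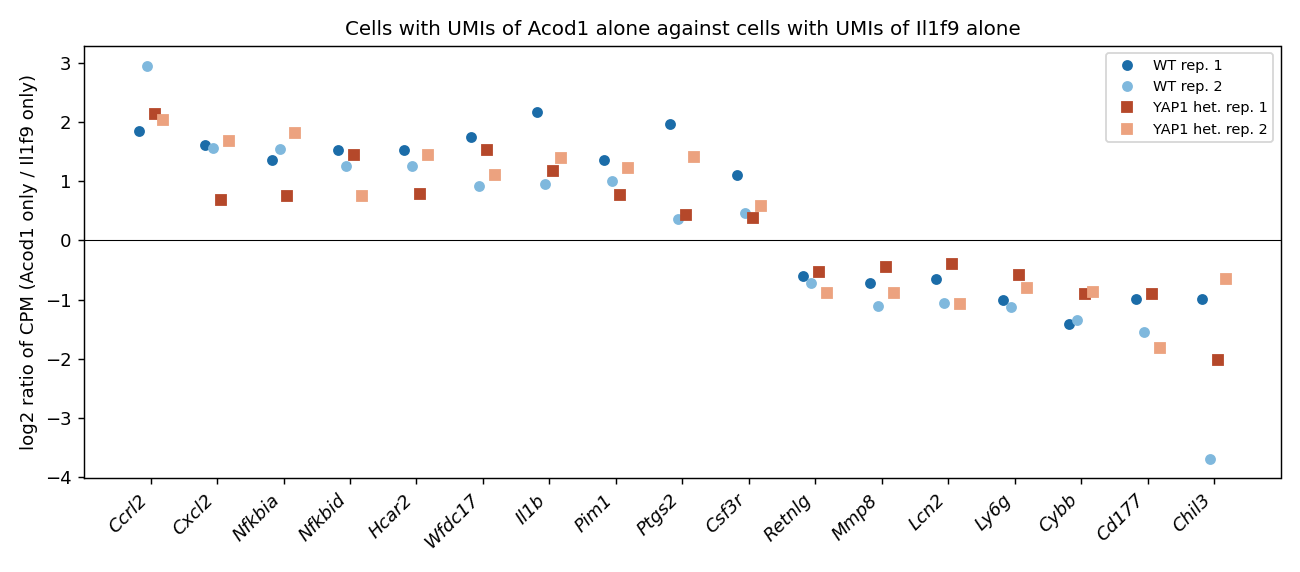
Log2 ratio of CPM, members with UMIs of Acod1 alone to members with UMIs of Il1f9 alone, for 17 genes, 1 point per library. Every point of Ccrl2, Cxcl2, Nfkbia and Il1b lies above 0 and every point of Retnlg, Mmp8, Ly6g, Cybb and Cd177 below it.

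Within members, genotype was tested over all genes on UMI counts summed per library. Of 9371 genes tested with edgeR's quasi-likelihood test, 0 (0%) passed an adjusted p of 0.05, with 461 at an unadjusted p under 0.05 and a smallest adjusted p of 0.757 (Cdkn1a). DESeq2 called 12, of which 5 were higher and 7 lower in YAP1 heterozygote. Among all genes tested, 19.1% were lower and 13.8% higher in both YAP1 heterozygote libraries than in both WT libraries, and the median log2 fold change was -0.01. Comparison neutrophils likewise had 0 of 9412 genes called by edgeR (0%), with 635 at an unadjusted p under 0.05, and 1 by DESeq2. Neighbours, mature neutrophil barcodes with 1 or 2 UMIs of Acod1 and Il1f9, had 6 of 9403 genes called by edgeR (0.0638%), 3 higher and 3 lower. The edgeR count moved with single libraries. Leaving out each library in turn gave 2, 100, 5 and 2 calls, where the 100 came with WT replicate 1 as the lone WT library, its spread taken from the other group. Comparison neutrophils gave 1, 51, 2 and 1. The adjusted p from edgeR was 0.945 or higher for each gene given below with a fold change unless stated, and none is said to have changed.

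Of the 4 chemokine and receptor markers outside the rule, 3 were lower in both YAP1 heterozygote libraries than in both WT libraries. Cxcl2 was at 10351 and 5824 CPM in WT and at 2919 and 4523 CPM in YAP1 heterozygote, a log2 fold change of -1.08 ± 0.28 (SE). Clec4e was at 1214 and 825 CPM against 665 and 675 CPM (-0.58 ± 0.17). Ccrl2 was at 569 and 133 CPM against 93.0 and 75.8 CPM (-2.01 ± 0.54), with WT replicate 1 apart from the other 3 libraries. The groups did not overlap for these 3 genes. Without WT replicate 1 the log2 fold changes were -0.66 for Cxcl2, -0.32 for Clec4e and -0.67 for Ccrl2. Fpr1, at 247 and 245 CPM against 222 and 268 CPM, did overlap. In B cells Cxcl2 was at 82.9, 24.3, 46.1 and 25.9 CPM, so WT replicate 1 was highest there as well.

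The NF-kB subunits and feedback inhibitors were the list with the lowest median. Of its 19 tested genes 0 were called, 12 were lower in YAP1 heterozygote without overlap (against 19.1% of all genes), 0 were higher without overlap and 17 had a negative fold change, with a median of -0.81. Nfkbia was at 3092 and 795 CPM in WT and at 581 and 469 CPM in YAP1 heterozygote (-1.84 ± 0.50). Tnfaip3, which codes for the ubiquitin-editing inhibitor A20, was at 576 and 97.5 CPM against 66.2 and 35.3 CPM (-2.69 ± 0.70). WT replicate 1 lay 3.89 times above WT replicate 2 for Nfkbia and 5.91 times for Tnfaip3. Without WT replicate 1 the list's median was -0.26, Nfkbia was at -0.62 and Tnfaip3 at -0.98. In cells thinned to 1000 UMIs the median of 18 genes was -0.97.

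The other 10 genes lower without overlap were Nfkb2, Rel, Nfkbib, Nfkbid, Nfkbie, Nfkbiz, Zc3h12a, Traf1, Birc3 and Cish. Cish is known as a feedback inhibitor of cytokine receptors and not of NF-kB. Nfkbiz, which supports transcription of secondary NF-kB targets, was at 1508 and 579 CPM against 520 and 493 CPM. Of the subunits, Rela and Nfkb1 overlapped between the groups. Neighbours had a list median of -0.39 over 18 genes and comparison neutrophils -0.17 over 17 genes. In B cells Nfkbia was at 427, 345, 294 and 273 CPM and Tnfaip3 at 149, 77.9, 76.1 and 52.9 CPM. WT replicate 1 was again highest, and both WT libraries lay above both YAP1 heterozygote libraries for each gene. The same order held in neighbours, with Nfkbia at 1675, 465, 449 and 346 CPM and Tnfaip3 at 259, 63.9, 29.6 and 19.1 CPM. The part of WT replicate 1 as a whole in the members' values was not tested.

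Of 12 tested genes of the IL-1 family and inflammasome, 5 were lower and 1 higher without overlap, against 19.1% and 13.8% of all genes. Il1b was at 3158 and 2186 CPM in WT and at 1256 and 1831 CPM in YAP1 heterozygote (-0.76 ± 0.22). Nlrp3, the inflammasome sensor, was at 440 and 289 CPM against 161 and 215 CPM (-0.92 ± 0.22), and DESeq2 gave it an adjusted p of 0.0486. The decoy receptor gene Il1r2 was at 822 and 819 CPM against 636 and 694 CPM (-0.28 ± 0.13). Among 18 cytokine and chemokine genes 5 were lower and 3 higher, and Osm, a cytokine of the IL-6 family, was on the other side at 436 and 668 CPM in WT and 928 and 829 CPM in YAP1 heterozygote (0.68 ± 0.22). Cxcl10, a chemokine for T cells, was among those lower, at 22.5 and 5.87 CPM in WT and at 1.95 and 0.687 CPM in YAP1 heterozygote (-3.45 ± 0.77, adjusted p = 0.945 with edgeR and 0.00791 with DESeq2). Without WT replicate 1 the value was -2.20 for Cxcl10, 0.37 for Osm, -0.51 for Il1b and -0.63 for Nlrp3. The median of the cytokine list was -0.08.

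Of 36 tested AP-1 and immediate early genes, 17 were lower and 5 higher in YAP1 heterozygote without overlap, with a median of -0.15. The shares over all genes were 19.1% lower and 13.8% higher. Fosl1, the AP-1 subunit FRA1, was among those lower, at 41.6 and 32.4 CPM in WT and at 6.42 and 15.6 CPM in YAP1 heterozygote (-1.69 ± 0.34, adjusted p = 0.945 with edgeR and 0.0157 with DESeq2). Dusp1, a phosphatase that turns off MAP kinases, was at 1808 and 1804 CPM in WT and at 3352 and 2423 CPM in YAP1 heterozygote (0.69 ± 0.15). Fos was at 1352 and 1827 CPM against 3043 and 2480 CPM (0.81 ± 0.18), and DESeq2 gave it an adjusted p of 0.0387. Junb overlapped, at 3158 and 2753 CPM against 2803 and 2686 CPM. Fos, Fosl1, Cxcl10, Tnfaip3 and the genes that DESeq2 called were named after their values were seen.

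**Figure D5:**
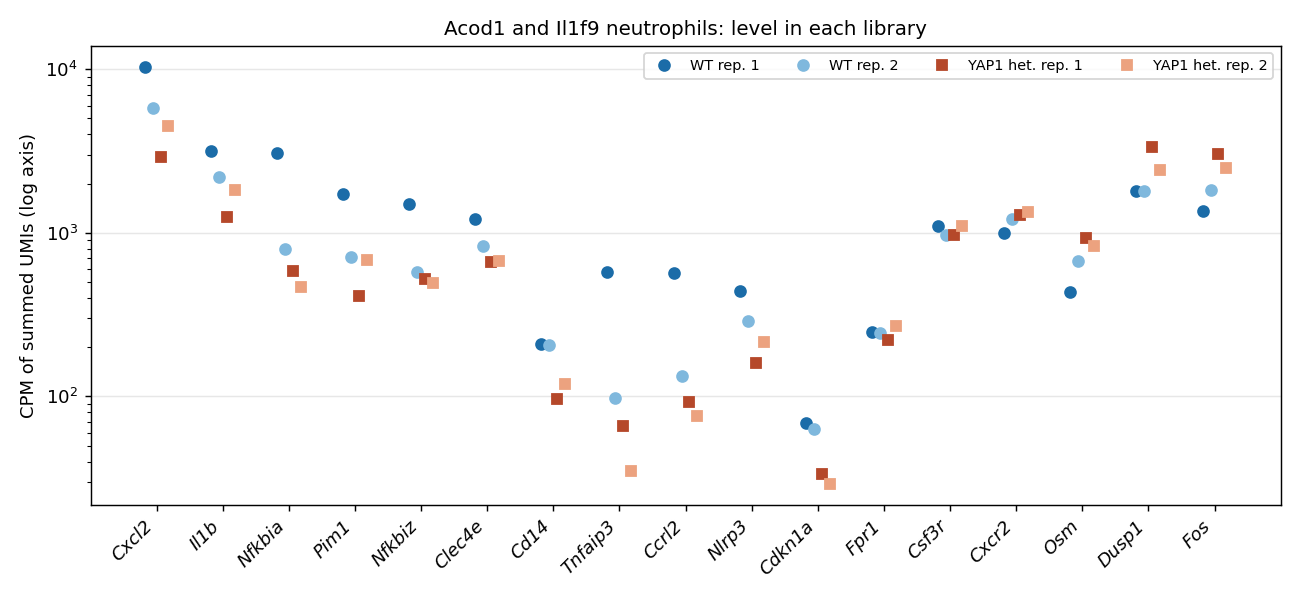
CPM of 17 genes in members of each library (log axis; circles WT, squares YAP1 heterozygote). WT replicate 1 is far above the other libraries for Nfkbia, Tnfaip3 and Ccrl2, whereas Fos, Dusp1 and Osm are higher in both YAP1 heterozygote libraries.

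In survival and cell death genes, 10 of 20 tested were lower and 1 higher without overlap (median -0.21). Over all genes, 19.1% were lower and 13.8% higher. Pim1 was at 1731 and 708 CPM in WT and at 413 and 686 CPM in YAP1 heterozygote (-1.10 ± 0.39), and the log2 fold change without WT replicate 1 was -0.38. Mcl1, which keeps neutrophils alive, was at 1566 and 1454 CPM against 1346 and 1411 CPM. Of 22 genes of itaconate, NRF2 and oxidant defence, 6 were lower and 2 higher, and of 26 receptors of microbial products and chemoattractants, 7 were lower and 4 higher. Cd14, the lipopolysaccharide co-receptor, was at 208 and 206 CPM against 96.1 and 119 CPM (-0.92 ± 0.16, adjusted p = 0.817 with edgeR and 0.0153 with DESeq2). The cell cycle inhibitor gene Cdkn1a was at 69.1 and 63.5 CPM against 33.5 and 29.3 CPM (-1.06 ± 0.14, adjusted p = 0.757 with edgeR and 0.0198 with DESeq2). For both genes the WT libraries were close to each other, and without WT replicate 1 the log2 fold changes were -0.95 and -1.04.

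Genes of neutrophil maturity and granules had medians near that of all genes. Of 24 tested genes of mature neutrophils 7 were lower and 4 higher (median 0.04), against 19.1% and 13.8% of all genes. Of 17 granule protein genes 0 were lower and 1 higher (median 0.09). Retnlg was at 34606 and 44949 CPM in WT and at 43697 and 41408 CPM in YAP1 heterozygote. Mmp8 was at 2365 and 2620 CPM against 2981 and 2628 CPM. Surface activation and adhesion genes had 4 lower and 4 higher of 23 (median near 0), and glycolysis and hypoxia genes 3 and 3 of 27 (median 0.01). Interferon-stimulated genes had 0 lower and 8 higher of 27 (median 0.14), in cells from which the rule had removed those richest in Ifit1, Ifit3 and Rsad2. Heat shock genes had 3 lower and 0 higher of 14, and mitochondrially encoded transcripts 0 and 3 of 13.

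Hippo pathway genes and YAP targets had 0 lower and 3 higher of 10 tested (median 0.10), against 19.1% and 13.8% of all genes. Yap1 itself had 0 UMIs in the members of every library, which allows up to 3 UMIs per library. The level of Yap1 thus checks no genotype in these cells. Myh9, the non-muscle myosin heavy chain gene that the study's title names, was at 582 and 506 CPM in WT and at 625 and 504 CPM in YAP1 heterozygote, and the groups overlapped.

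The summed level of macrophage markers was higher in members of both YAP1 heterozygote libraries than in those of both WT libraries. The 9 macrophage markers summed to 34.4 and 19.1 CPM in WT members and to 56.4 and 103 CPM in YAP1 heterozygote members. C1qa, a complement subunit gene of macrophages, had 10 and 3 UMIs in WT and 26 and 87 UMIs in YAP1 heterozygote, and Apoe was at 119 and 131 CPM against 235 and 235 CPM (0.93 ± 0.14, adjusted p = 0.817 with edgeR and 0.00217 with DESeq2). C1qa, C1qb, C1qc and Apoe made up 4 of the 5 genes that DESeq2 called as higher. In neighbours Apoe was at 116, 237, 98.6 and 199 CPM and C1qa at 1.29, 11.8, 3.07 and 12.6 CPM. B cells had Apoe at 98.9, 205, 135 and 233 CPM. The groups thus overlapped in both kinds of cell. In immature neutrophils C1qa was at 1.62 and 2.17 CPM in WT and at 3.25 and 6.65 CPM in YAP1 heterozygote. Comparison neutrophils had macrophage markers at 227, 177, 152 and 167 CPM, mostly Vcam1 (204, 144, 116 and 126 CPM). Members with 3 or more UMIs of another type's markers were then left out, as were doublets. The types were macrophages, basophils or mast cells, eosinophils, B cells, T or NK cells and megakaryocytes. Monocyte, dendritic cell and erythroid markers were not used for this. It left 0 genes called by edgeR, with 260 at an unadjusted p under 0.05, and an NF-kB list median of -0.84.

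Whether the genotype difference itself differed between members and comparison neutrophils was tested with the interaction of cell kind and genotype, with library as a block. It was called for 11 of 10104 genes (0.109%), 4 with a higher and 7 with a lower difference in members, and 677 genes had an unadjusted p under 0.05. The called genes included the class II antigen presentation genes H2-Aa, H2-Eb1 and Cd74 and no gene of the NF-kB list. With doublets left out 4 of 9794 genes were called, among them H2-Eb1 and Cd74 but not H2-Aa (adjusted p = 0.123 in edgeR). With the neighbours in place of comparison neutrophils 4 genes were called, and leaving out each library in turn gave 33, 120, 46 and 57. The interaction had an adjusted p of 0.615 for Cxcl2, 0.133 for Nfkbia and 0.385 for Tnfaip3 in edgeR, so a genotype difference particular to members was not shown for these genes.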

How the data were processed

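The authors deposited raw UMI counts per gene and barcode, 1 matrix per library, not normalized. Per the file headers, matrices were written by Cell Ranger 5.0.0, whereas the submitters' processing notes name Cell Ranger 3.0.0, Seurat 4.3.0, GRCm38 and mm10, and which version made the counts could not be settled. Counts at the 3′ end do not separate alleles. Droplet libraries also carry free RNA, for which the share in B cells is given beside the members' shares.

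The members, gene lists and markers were chosen with earlier results of these data known. Cells were summed per library and class with Python 3.11.15, and CPM uses the UMIs of the class in that library. Genotype was tested with edgeR 4.0.16 (quasi-likelihood, filterByExpr, TMM factors, Benjamini-Hochberg adjustment over all genes, threshold 0.05), with DESeq2 1.42.0 as an alternative. A negative log2 fold change means a lower level in YAP1 heterozygote. Genes of the rule were described but not counted. Library shares were compared with an exact permutation test over 4 libraries. Depth per cell was equalised by drawing 1000 UMIs without replacement. Doublets were called with Scrublet in scanpy 1.11.5 (0.8% per 1000 barcodes). The edgeR script was tested on simulated counts. It recovered 11.9% of 1.5-fold, 46.3% of 2-fold and 93.9% of 4-fold changes, and 10 of its 111 calls (9.01%) were false. Alternatives covered the limit on UMIs, depth, doublets, normalization, the filter on low counts, the replicate number as a block and each library left out.

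Named genes were the 6 markers, the 25 highest and 15 lowest ratios to comparison neutrophils (at least 100 CPM in 3 libraries, same sign in all 4), up to 12 called genes per direction (no overlap, average log2 CPM 4 or higher), and of each list the called members or else the 4 with the highest mean CPM. Genes named outside this rule, including those of the comparison of Acod1-only and Il1f9-only cells, were chosen after their values were seen. Promoter windows were cut from the RefSeq table at the start site, and all 5 genes shown were found there by symbol.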

Additional observations from a re-analysis of the deposited data

Results flagged for a closer look

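For 7 genes the interaction test in edgeR found a genotype difference in Acod1 and Il1f9 neutrophils unlike that in comparison neutrophils. For these genes the ratio of members to comparison neutrophils did not overlap between the groups. The levels in members themselves did overlap between the groups for Pf4, Lgals1 and Ccl5. All values are log2 differences, members minus comparison neutrophils, with an adjusted p from edgeR. They were 1.87 for H2-Aa (0.00292), 2.30 for H2-Eb1 (0.00292) and 1.15 for Cd74 (0.00737), the class II antigen presentation genes, 2.04 for the adhesion gene Vcam1 (0.0109), -2.23 for the platelet factor gene Pf4 (0.00962), -1.05 for the galectin gene Lgals1 (0.0122) and -1.58 for the chemokine gene Ccl5 (0.0424).

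H2-Aa was at 54.9 and 103 CPM in WT members and 145 and 122 CPM in YAP1 heterozygote members, and at 66.5, 73.2, 32.8 and 33.7 CPM in comparison neutrophils. The dendritic cell markers, which include H2-Aa and Cd74, had 3 or more UMIs in 3.35% to 4.53% of members, and in 0.752% to 1.59% once doublets were left out. B cell markers did so in 2.83% to 3.82% of members, and in 0.150% to 0.574% once doublets were left out. Of B cells, 50.1% to 63.5% had a UMI of H2-Aa and 67.4% to 76.0% of Cd74. Pf4 and Ccl5 went with the replicate number: members held 51, 149, 10 and 295 UMIs of Pf4 and 121, 435, 9 and 237 UMIs of Ccl5 in the order of WT replicates 1 and 2 and YAP1 heterozygote replicates 1 and 2. Vcam1, which was on the list of macrophage markers, was at 204, 144, 116 and 126 CPM in comparison neutrophils and at 9.52, 1.96, 15.4 and 18.1 CPM in members. Each of the other 8 macrophage markers had 3 or more UMIs in 0% to 0.622% of comparison neutrophils, in which Elane was at 8741 to 12466 CPM. Lgals1 was at 129 and 93.1 CPM in WT members, at 103 and 79.2 CPM in YAP1 heterozygote members and at 107, 92.0, 174 and 160 CPM in comparison neutrophils, where the gap between the groups lay. With doublets left out, a setting chosen after seeing the data, H2-Eb1 (4.28, adjusted p = 0.0196), Cd74 (2.29, 0.0143), Pf4 (-2.72, 0.0301) and Vcam1 (2.15, 0.0301) were still called by edgeR. H2-Aa (3.01, 0.123), Lgals1 (-0.91, 0.382) and Ccl5 (3.13, 0.382) were not, and the sign for Ccl5 was reversed. The part of other cell types in these values was not tested.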

How the results depend on the processing

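The share of members among mature neutrophil barcodes (-16.0 percentage points, YAP1 heterozygote minus WT) and among all kept barcodes (-2.89) kept its direction and its lack of overlap under cuts of 2 or 5 UMIs or 0.1% of UMIs, thinning, doublet removal and a 10% limit on S100 genes. It kept its direction without each library. For genotype within members, where edgeR called 0, DESeq2 called 12, no filter on low counts 151 and single-library omission 2 to 100. Within comparison neutrophils these counts, also from 0, were 1, 141 and 1 to 51. The interaction, 11 in all, fell to 4 without TMM factors, gave 60 without the filter and 33 to 120 with a library left out, and 3 with the 10% limit, 4 with neighbours and 4 with doublets left out, all chosen after seeing the data. The filter removes low genes, and the no-filter fit also tests them; the cause of its extra calls was not tested. Of the description's 119 higher and 437 lower genes, thinning left 1 and 94, the 10% limit 0 and 54 and neighbours 0 and 11 (the latter 2 chosen after seeing the data). For the 20 genes with a fold change, 233 alternative values stayed on the same side of the threshold, 44 passed it and 0 changed direction.

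Labels give both groups the same replicate numbers but not that a number marks shared animals. By Ddx3y and Xist the number went with sex in both groups. Over 9381 genes, deviations from the group mean correlated at 0.36 between replicates 1. With the replicate block, 3 genes were called within members (Hba-a2, Tbc1d4 and Cxcl10) and 27 within comparison neutrophils.

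With 2 libraries per group, members of 3400.5 to 4286 UMIs in the median and a limit of 3 UMIs, membership depends on depth, and no share can pass the exact permutation test.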

Other observations

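Cells outside the rule also carried Acod1 and Il1f9. Among mature neutrophil barcodes with at least 3 UMIs of Ifit1, Ifit3 and Rsad2, 98 of 131 in WT replicate 1, 94 of 151 in WT replicate 2, 42 of 96 in YAP1 heterozygote replicate 1 and 83 of 187 in YAP1 heterozygote replicate 2 had at least 3 UMIs of Acod1 and Il1f9. Among immature neutrophils, 17.6% and 15.5% of barcodes in WT and 8.61% and 10.2% in YAP1 heterozygote did. Cxcl2 in these immature cells was at 717 and 275 CPM in WT and 132 and 143 CPM in YAP1 heterozygote, and Osm at 80.3 and 131 CPM against 176 and 143 CPM. For Cxcl2 and Osm both WT libraries thus stood on one side of both YAP1 heterozygote libraries in these cells, still rich in granule transcripts. Clec4e, at 256 and 220 CPM against 181 and 163 CPM, was also lower in both YAP1 heterozygote libraries. So were Ccrl2, Tnfaip3, Nlrp3, Il1b, Il1r2, Il1rn, Pim1, Cd14, Cdkn1a, Cxcl10 and Fosl1, while Dusp1, Fos and C1qa were higher. Nfkbia, at 413 and 181 CPM in WT against 205 and 152 CPM, overlapped between the groups there. So did Nfkbiz, at 211 and 116 CPM against 137 and 107 CPM, and Apoe, at 34.3 and 48.5 CPM against 40.2 and 52.3 CPM. These values were not tested.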
